A study of Mus musculus with 4 samples.

Results

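The genes described here are 40 complement and coagulation factors, the plasma proteins of the complement cascade, the clotting cascade, fibrinolysis and natural anticoagulation whose transcripts the liver makes. They were chosen by name and known function, by a rule that uses no measured value but was written with earlier results of these data known, as 19 complement and 21 clotting or fibrinolysis genes. The 40 stand among 17406 genes and other features tested, and all 40 were measured well above background on each of the 4 arrays. The study set livers of wild type mice (n = 2) against livers of Cyp3a-/- mice (n = 2), in which the whole Cyp3a cluster, a group of neighbouring cytochrome P450 genes for drug and steroid oxidation, was knocked out. Cy3-labelled RNA of each whole liver was read on a separate Agilent array for mouse transcripts, with 1 colour per array. The labels speak of independent experiments on different animals. Strain, age, sex, feeding and the way the knockout was made are not given in the sources used here. Per the array files, both wild type arrays lay on 1 slide and each Cyp3a-/- array on a slide of its own, so slide and genotype cannot be told apart.

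Complement is a set of plasma proteases and binding proteins that marks microbes and damaged cells. Its classical, lectin and alternative pathways meet at the cleavage of C3 and end in a pore built from the terminal components. Coagulation is a second chain of plasma proteases that ends when thrombin turns fibrinogen into fibrin, and plasminogen then dissolves that fibrin. Hepatocytes supply most of these proteins to the blood, and several of them, fibrinogen and C3 included, are acute phase proteins.

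Signals are log2 intensities after the scanner software's correction, set to 0 at each array's 75th percentile, so 1 unit is a doubling, and a log2 fold change is the Cyp3a-/- mean minus the wild type mean, given ± SE. Levels are compared between livers for the same probe, not between genes. The targeted cluster checked the labels: the signal of Cyp3a11 was 8.01 ± 0.11 (SD, n = 2) in wild type livers and -6.96 ± 0.04 (SD, n = 2) in Cyp3a-/- livers, where it was not well above background. The share of probes well above background was 54.4% to 56.4%, none was saturated, and the log2 signals of all features correlated at 0.992 between the wild type livers, at 0.988 between the Cyp3a-/- livers and at 0.977 to 0.987 across genotypes. Of the hepatocyte list (albumin and other products of the main liver cell), 9 of 10 genes were measured, all on every array, with a median log2 fold change of 0.12. The summed hepatocyte signal was 11.7 to 11.9 in wild type and 11.8 to 11.9 in Cyp3a-/- livers. All 10 stellate cell markers were below 0 (median -0.23, summed signal 6.29 to 6.44 in wild type and 6.02 to 6.22 in Cyp3a-/- livers). The 5 measured erythroid markers of 6 had a median of -0.81 (summed signal 6.57 to 6.80 against 5.59 to 6.28), and the 9 measured Kupffer cell markers of 10 had a median of -0.11 (5.88 to 5.92 against 5.59 to 5.72). In whole liver RNA, fewer cells of a type and less RNA per cell cannot be told apart, and the part of these lists in any value that follows was not tested.

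None of the 40 transcripts passed the test between genotypes. With limma's moderated test and Benjamini-Hochberg adjustment over all features, 0 of 40 members had an adjusted p under 0.05, against 0.276% of all features, and the smallest adjusted p among them was 0.427. At an unadjusted p under 0.05, 1 member was higher in Cyp3a-/- livers (C2, 2.5% of the members against 4.6% of all features) and 0 were lower (against 5.42% of all features). The members' median log2 fold change was -0.01 against 0.01 over all features, with 18 above 0 and 22 below. With quantile normalization that median was -0.13, with 11 above 0 and 29 below, and with scaling to the array median it was 0.02, with 24 above 0 and 16 below. Without Cyp3a-/- liver 1, 31 members were above 0 and 9 below, so the split around 0 was not stable. The single values ran from -0.91 (Fgb) to 0.57 (C2).

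The members lay closer to 0 than the median feature did, but so did some related lists. Their median absolute log2 fold change was 0.11 against 0.20 over all features, and 2 of 40 (5%), C2 and Fgb, differed by more than 0.5 in either direction, against 16.1% of all features. The median absolute value was 0.14 for the hepatocyte markers and 0.11 for the vitamin K cycle genes described below, with 0% of either list over 0.5. Other complement genes were at 0.15 (16.7% over 0.5) and other clotting genes at 0.18 (8.33%). All members were above background on all 4 arrays, while 924 of 17406 features were not, and members were not matched to features of like signal. These are descriptions of chosen lists and carry no test. The 95% interval of the log2 fold change lay within -1 to 1 for 37 members, all but C2, F11 and Fgb, with a median distance of 0.48 from the estimate to either end. Smaller changes than that could not be told from 0 with 2 livers a genotype, and an exact permutation test of 2 against 2 livers cannot give a p under 0.333.

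**Figure D1:**
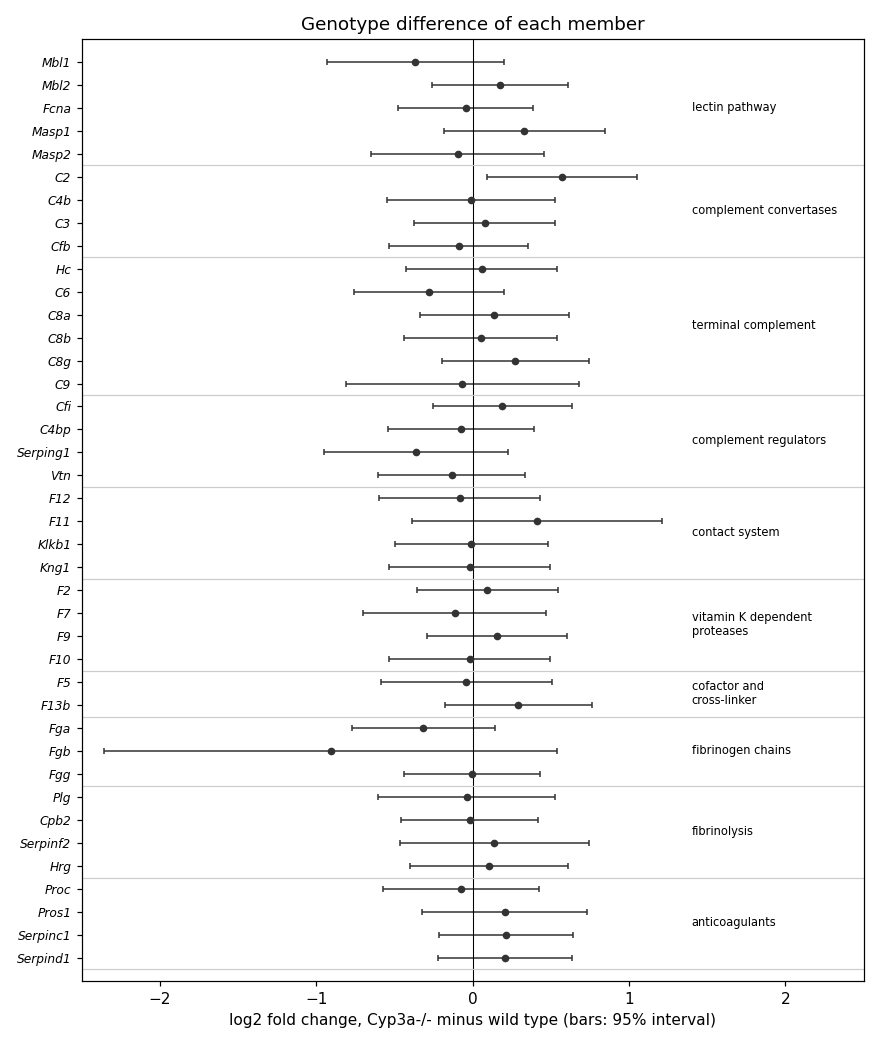
Log2 fold change, Cyp3a-/- minus wild type, of each of the 40 members (points) with its 95% interval from limma (bars), grouped by role. The interval of C2 alone lies wholly on 1 side of 0, from 0.09 to 1.05 before any adjustment for the number of genes tested, and that of Fgb is the widest, from -2.36 to 0.54.

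The 19 complement members had a median log2 fold change of -0.01 (9 above 0, 10 below, range -0.37 to 0.57), and the 21 clotting members a median of -0.01 (9 above 0, 12 below, range -0.91 to 0.41). With quantile normalization these medians were -0.15 and -0.12. Medians of the role groups that follow ran from -0.32 (fibrinogen chains, -0.46 with that setting) to 0.21 (anticoagulants, 0.061 with that setting). Several medians nearer to 0 changed sign with quantile normalization. They were then -0.09 for the convertases, -0.13 for the terminal components, -0.13 for the vitamin K dependent proteases and -0.12 for fibrinolysis. Groups without overlap, in which both livers of 1 genotype exceeded both of the other, were found for 9 members higher in Cyp3a-/- livers (22.5%, against 22.5% of all features) and for 4 lower (10%, against 20.2% of all features). The 9 were C2, C8g, Cfi, F13b, F9, Masp1, Mbl2, Serpinc1 and Serpind1, and the 4 were C6, Fga, Mbl1 and Serping1. Both shares were at or under the background, so the lack of overlap says nothing particular about these genes.

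The lectin pathway starts when mannose-binding lectins or ficolins bind sugars on a microbe and switch on the MASP proteases. Its 5 members had a median log2 fold change of -0.04. Mbl1, which encodes mannose-binding lectin A, had signals of 3.78 and 4.23 in wild type livers and 3.54 and 3.74 in Cyp3a-/- livers. Both Cyp3a-/- values were the lower ones, but the gap inside the wild type pair (0.45) exceeded the difference of genotype means, and the log2 fold change of -0.37 ± 0.23 had an adjusted p of 0.636. Mbl2, which encodes mannose-binding lectin C, had signals of 7.46 and 7.54 in wild type and 7.63 and 7.71 in Cyp3a-/- livers. The pairs did not overlap and were each tight, and the log2 fold change of 0.17 ± 0.17 had an adjusted p of 0.762; with quantile normalization it was -0.04. Masp1, the gene of a lectin pathway protease, had signals of -0.11 and -0.29 in wild type and -0.04 and 0.30 in Cyp3a-/- livers. The lower Cyp3a-/- liver was close to the higher wild type liver, and the log2 fold change was 0.33 ± 0.21 (adjusted p = 0.637). Masp2, the protease that cleaves C4 and C2, had a log2 fold change of -0.09, and Fcna, which encodes ficolin A, one of -0.04.

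The C3 convertases are the proteases that split C3, and C2 supplies the catalytic chain of the classical and lectin form. C2 had the highest log2 fold change of all 40 members. Its signals were 5.61 and 5.64 in wild type livers and 6.05 and 6.34 in Cyp3a-/- livers. The wild type livers were nearly equal, both Cyp3a-/- livers were higher, and the pairs did not overlap. The log2 fold change was 0.57 ± 0.19, a 1.49-fold higher signal, with an unadjusted p of 0.027 and an adjusted p of 0.427 in limma's test. The log2 fold change stayed between 0.43 (without Cyp3a-/- liver 2) and 0.72 (without Cyp3a-/- liver 1) over the alternatives run. However, limma's unadjusted p was 0.0519 with quantile normalization and 0.0592 with scaling to the array median. With slide fitted as a random block, the adjusted p of C2 was 0.792. One spot per array measured C2, with processed intensities of 15240 and 17550 in wild type and 20810 and 24980 in Cyp3a-/- livers, and no flag was set on these spots.

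The other convertase components had values near 0. C3, the protein on which the pathways converge, had signals of 9.40 and 9.22 in wild type and 9.35 and 9.42 in Cyp3a-/- livers. The pairs overlapped, and the log2 fold change was 0.08 ± 0.18 (adjusted p = 0.906). Cfb, which encodes factor B, the alternative pathway counterpart of C2 and its next neighbour in the gene order of assembly GRCm38.p6, had a log2 fold change of -0.09 with signals of 7.34 and 7.45 in wild type and 7.24 and 7.37 in Cyp3a-/- livers. C4b had a log2 fold change of -0.01; its near-identical copy C4a had no probe of its own in the names used here, so the C4b signal may hold both.

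The terminal components C5 to C9 assemble into the membrane attack pore. Their 6 members had a median log2 fold change of 0.05. Hc, the mouse gene of C5, had signals of 7.65 and 7.48 in wild type and 7.49 and 7.75 in Cyp3a-/- livers. The pairs overlapped, and the log2 fold change was 0.06 ± 0.19 (adjusted p = 0.937). C6 had signals of 3.82 in both wild type livers and 3.40 and 3.69 in Cyp3a-/- livers. Both Cyp3a-/- livers were lower, but by unequal amounts, and the log2 fold change was -0.28 ± 0.19 (adjusted p = 0.665). C9, which forms the wall of the pore, had signals of 3.92 and 3.25 in wild type and 3.28 and 3.75 in Cyp3a-/- livers. Its wild type livers differed by 0.67, far more than the genotype means, and the log2 fold change was -0.07 ± 0.30 (adjusted p = 0.955).

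The genes of the C8 chains had log2 fold changes of 0.14 (C8a), 0.05 (C8b) and 0.27 (C8g). C8g, the gene of the small gamma chain, had signals of 7.75 and 7.69 in wild type and 7.86 and 8.12 in Cyp3a-/- livers. The pairs did not overlap, and the difference of 0.27 ± 0.19 had an adjusted p of 0.667; with quantile normalization it was 0.057. The 4 regulators had a median of -0.10. Serping1, which encodes C1 inhibitor, a brake on both the complement and the contact proteases, had signals of 6.78 and 6.90 in wild type and 6.21 and 6.74 in Cyp3a-/- livers. The low value was that of Cyp3a-/- liver 1, which was 0.53 under Cyp3a-/- liver 2, and the log2 fold change was -0.36 ± 0.24 (adjusted p = 0.648). Its other probe gave -0.22. The remaining regulators were Cfi (factor I, the protease that inactivates C3b and C4b) at 0.19, C4bp (C4b-binding protein, a cofactor of factor I) at -0.07, and Vtn (vitronectin, which blocks the terminal complex) at -0.14.

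**Figure D2:**
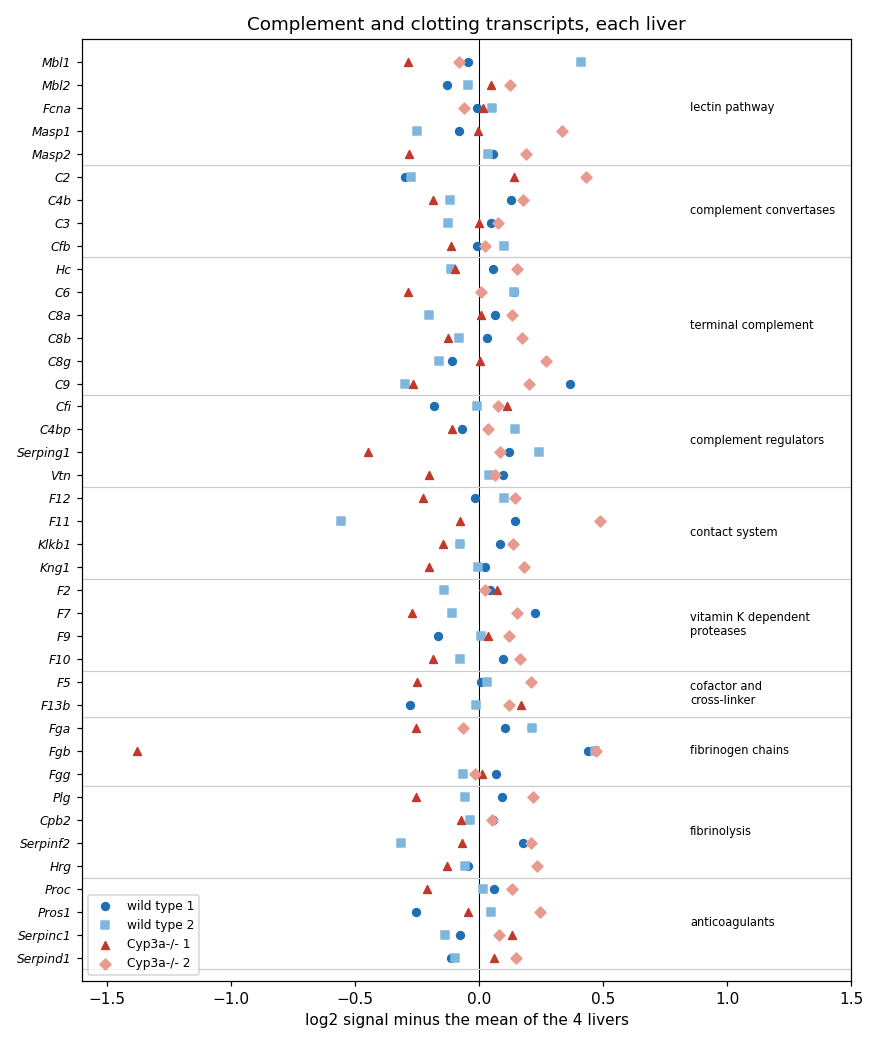
Log2 signal of each member in each liver, minus the mean of the 4 livers, grouped by role. Cyp3a-/- liver 1 is the lowest of the 4 for 21 members and Cyp3a-/- liver 2 the highest for 24, and the point far to the left is Fgb in Cyp3a-/- liver 1.

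In the contact system, F12, Klkb1 and Kng1 (factor XII, plasma prekallikrein and kininogen, the proteins that start clotting on charged surfaces) had log2 fold changes of -0.08, -0.01 and -0.02. Kng1 has a close relative, Kng2, which the probe may also detect. F11, which encodes factor XI, had signals of 3.68 and 2.98 in wild type and 3.46 and 4.03 in Cyp3a-/- livers. It was the only member whose livers differed by more than 0.5 inside both genotypes (0.70 in wild type and 0.57 in Cyp3a-/-), the pairs overlapped, and the log2 fold change of 0.41 ± 0.32 had an adjusted p of 0.697. Its neighbour Klkb1 had signals of 5.44 and 5.28 in wild type and 5.21 and 5.49 in Cyp3a-/- livers.

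The vitamin K dependent proteases carry the clotting signal from factor VII to thrombin, and their 4 members had a median log2 fold change of 0.04. F2, the gene of prothrombin, had signals of 7.92 and 7.73 in wild type and 7.94 and 7.89 in Cyp3a-/- livers. The pairs overlapped and the log2 fold change was 0.09 ± 0.18 (adjusted p = 0.883). F7, F9 and F10 had log2 fold changes of -0.12, 0.16 and -0.02. F5, the cofactor that speeds prothrombin cleavage, had a log2 fold change of -0.04. F13b encodes the carrier subunit of factor XIII, the enzyme that cross-links fibrin. Its signals were 3.21 and 3.47 in wild type and 3.65 and 3.61 in Cyp3a-/- livers. Both Cyp3a-/- livers were higher, and the log2 fold change was 0.29 ± 0.19 (adjusted p = 0.649).

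Fibrinogen is built from 3 chains, encoded by Fga, Fgb and Fgg, which lie next to each other in the mouse genome. Their promoters are printed here because the arrays gave the 3 chains unlike values. Each is the 250 bases before the annotated start, 5′ to 3′ on the strand of the gene, from RefSeq's assembly GRCm38.p6 (Fga at chr3:83025903-83026152, plus strand; Fgb at chr3:83049864-83050113, minus strand; Fgg at chr3:83007474-83007723, plus strand). Capitals mark matches on either strand to an HNF1 motif (GTTAAT), a C/EBP motif (TTGCNNAA) or an IL-6 response element (CTGGGAA).
Fga: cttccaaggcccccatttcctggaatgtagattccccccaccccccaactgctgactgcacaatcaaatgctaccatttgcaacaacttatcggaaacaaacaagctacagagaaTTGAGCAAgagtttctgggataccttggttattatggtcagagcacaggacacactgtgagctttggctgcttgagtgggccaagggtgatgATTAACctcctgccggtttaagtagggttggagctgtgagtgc
Fgb: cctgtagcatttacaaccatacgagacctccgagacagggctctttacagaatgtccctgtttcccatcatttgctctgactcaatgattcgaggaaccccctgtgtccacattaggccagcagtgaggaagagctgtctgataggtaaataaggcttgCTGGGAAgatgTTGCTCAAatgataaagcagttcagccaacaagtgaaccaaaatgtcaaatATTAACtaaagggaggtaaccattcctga
Fgg: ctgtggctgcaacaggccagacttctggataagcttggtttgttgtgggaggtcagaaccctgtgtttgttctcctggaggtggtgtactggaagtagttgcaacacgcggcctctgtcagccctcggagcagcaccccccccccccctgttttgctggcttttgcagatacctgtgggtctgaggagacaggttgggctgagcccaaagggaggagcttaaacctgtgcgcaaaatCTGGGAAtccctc
The Fgb window holds all 3 motifs, with the HNF1 match 29 to 24, the C/EBP match 80 to 73 and the IL-6 match 91 to 85 bases before the start. The Fga window holds the HNF1 match at 43 to 38 and the C/EBP match at 135 to 128 bases before the start, and the Fgg window the IL-6 match at 13 to 7. The marked matches do not overlap each other. HNF1 and C/EBP are families of liver transcription factors, and interleukin-6 is the cytokine that drives fibrinogen synthesis in the acute phase. A promoter was found for 31 of the 40 members, and 8 of them (25.8%) held the HNF1 motif against 6.52% of 27025 promoters of the same length, 8 (25.8%) the C/EBP motif against 9.55%, and 5 (16.1%) the IL-6 motif against 9.08%. These are matches of letters in a fixed window and were not tested. Any link between them and the array values of the 3 fibrinogen chains was not tested either.

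Of the fibrinogen chains, Fgg had a log2 fold change near 0 and Fgb was low in a single liver. Fga was lower in both Cyp3a-/- livers by 1 of its 2 probes, without passing the test. Fgg had signals of 9.10 and 8.97 in wild type and 9.05 and 9.02 in Cyp3a-/- livers. The Cyp3a-/- pair lay inside the wild type pair, and the 95% interval of its log2 fold change ran from -0.44 to 0.43. Fga had signals of 5.39 and 5.50 in wild type and 5.04 and 5.23 in Cyp3a-/- livers. The pairs did not overlap, and the log2 fold change of -0.32 ± 0.18 had an adjusted p of 0.616; its unadjusted p was 0.138, but 0.0385 with quantile normalization and 0.0423 with normexp background correction. The other probe of Fga had signals of 3.47 and 3.36 in wild type and 3.08 and 3.43 in Cyp3a-/- livers. Its pairs overlapped, and its log2 fold change was -0.16.

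Fgb had signals of 8.95 and 8.98 in wild type livers and 7.13 and 8.98 in Cyp3a-/- livers. The other livers lay between 8.95 and 8.98, and Cyp3a-/- liver 1 lay 1.85 below its partner. The log2 fold change was -0.91 ± 0.58 with an adjusted p of 0.642. Without Cyp3a-/- liver 1 it was 0.02 (adjusted p = 0.993), and without Cyp3a-/- liver 2 it was -1.83 (adjusted p = 0.0183), so the value rests on Cyp3a-/- liver 1. A single spot per array measured Fgb. Its processed intensities were 154200 and 177400 in wild type and 44020 and 155400 in Cyp3a-/- livers, which put Cyp3a-/- liver 1 at 0.271 of the mean of the other arrays. The spot carried no flag for saturation, uneven pixels or outlying intensity on any array. A flag for an outlying local background was set on wild type array 1 and on Cyp3a-/- array 1, with median backgrounds of 26 and 29 against 25.5 and 29 on the other arrays.

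Counted over all features, a drop on 1 array alone was rare. Features on Cyp3a-/- array 1 that lay more than 1.5 below each of the other arrays, which were themselves within 0.5 of each other, numbered 4 of 17406, and 2 of these were above background on all 4 arrays. The same count was 2 on wild type array 1, 8 on wild type array 2 and 3 on Cyp3a-/- array 2. Features that lay alone higher by the same rule numbered 67 on Cyp3a-/- array 1, against 0 and 11 on the wild type arrays and 2 on Cyp3a-/- array 2. Cyp3a-/- array 1 thus stood apart in features above the other arrays and not in features below them. Fgb was the single member among those lower, and this count was chosen after its values were seen. Neither Fgg nor Fga, the partner chains, showed a drop of this size in that liver.

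**Figure D3:**
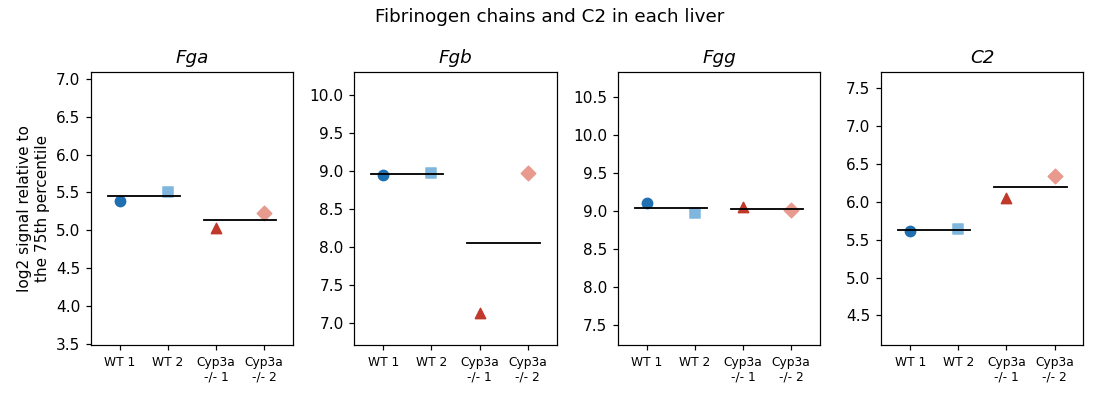
Log2 signals of Fga, Fgb, Fgg and C2 in each liver (points; 0 is the 75th percentile of the array), with the mean of each genotype as a line; every panel spans the same number of log2 units. Fgb is at 7.13 in Cyp3a-/- liver 1 and at 8.95 to 8.98 in the others, while both Cyp3a-/- livers exceed both wild type livers for C2.

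Fibrinolysis, the removal of fibrin, had 4 members with a median log2 fold change of 0.04 and values from -0.04 to 0.14. Plg, the gene of plasminogen, had signals of 7.10 and 6.95 in wild type and 6.75 and 7.23 in Cyp3a-/- livers. The Cyp3a-/- pair enclosed the wild type pair, and the log2 fold change was -0.04 ± 0.23 (adjusted p = 0.965). Cpb2, whose carboxypeptidase protects fibrin from plasmin, was at -0.02, Serpinf2 (alpha-2-antiplasmin, the main plasmin inhibitor) at 0.14 and Hrg (histidine-rich glycoprotein, which binds plasminogen and heparin) at 0.10. Over the alternatives run, Serpinf2 ranged from -0.11 to 0.39, the highest without wild type liver 1, and Plg from -0.27 to 0.20, the values without Cyp3a-/- liver 2 and without Cyp3a-/- liver 1.

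The 4 anticoagulants had a median log2 fold change of 0.21, which was 0.061 with quantile normalization. Serpinc1, which encodes antithrombin, the main inhibitor of thrombin and factor Xa, had signals of 8.49 and 8.43 in wild type and 8.70 and 8.65 in Cyp3a-/- livers. The pairs were tight and did not overlap, but the log2 fold change of 0.21 ± 0.17 had an adjusted p of 0.709. Serpind1, the gene of heparin cofactor II, another thrombin inhibitor, was at 0.21 with signals of 6.55 and 6.57 in wild type and 6.72 and 6.81 in Cyp3a-/- livers. Pros1 (protein S, the cofactor of activated protein C) was at 0.20 and Proc (protein C, which inactivates factors V and VIII) at -0.08. None of the 4 passed the test.

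A difference shared by most members lay between the Cyp3a-/- livers and not between genotypes. Of the 40 members, 34 (85%) had a higher signal in Cyp3a-/- liver 2 than in Cyp3a-/- liver 1, against 55.1% of all features. The median difference was 0.28 against 0.04 over all features. Among related lists described below, the share was 50% for other clotting genes, 66.7% for other complement genes and 70% for acute phase genes. It was 72.7% for liver transcription factors and 80% for the 5 vitamin K cycle genes. Members were not matched to features of like signal here either. Between the wild type livers, 16 of 40 (40%) were higher in liver 2, against 46.9% of all features, with a median difference of -0.04. The 6 exceptions in the Cyp3a-/- pair were Fcna, Cfi, F2, F13b, Fgg and Serpinc1. Cyp3a-/- liver 1 gave the lowest of the 4 signals for 21 members (52.5% against 32.5% of all features) and Cyp3a-/- liver 2 the highest for 24 (60% against 26.5%).

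This difference was seen in complement (17 of 19 members) and in clotting genes (17 of 21). The median absolute gap was 0.28 inside the Cyp3a-/- pair and 0.13 inside the wild type pair, against 0.25 and 0.20 over all features. The members' gaps exceeded 0.5 for Serping1, F11 and Fgb in the Cyp3a-/- pair and for C9 and F11 in the wild type pair. The count of members higher in Cyp3a-/- liver 2 depended on the scaling: 33 with quantile normalization, 35 with normexp background correction and all 40 with scaling to the array median, where 71.7% of all features were higher as well. Their median difference was then 0.46 against 0.22 over all features. The Cyp3a-/- arrays lay on separate slides and the wild type arrays shared 1, so a difference between livers and one between slides cannot be told apart.

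**Figure D4:**
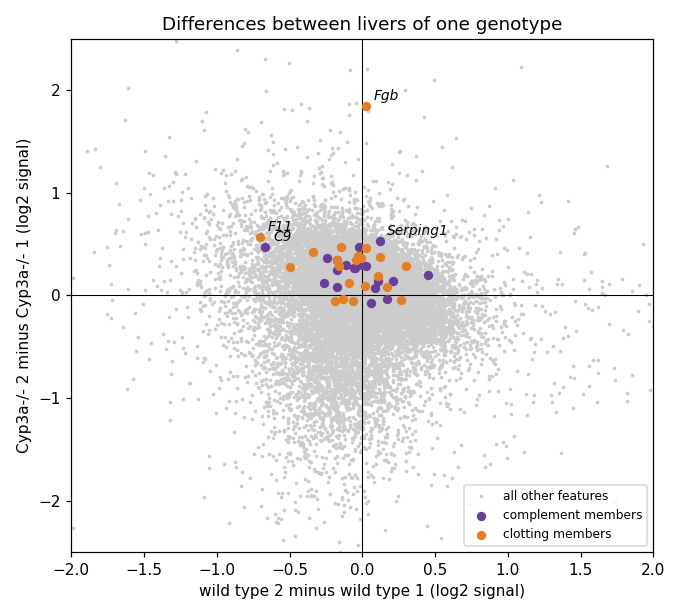
Difference in log2 signal between the Cyp3a-/- livers (vertical axis, liver 2 minus liver 1) against that between the wild type livers (horizontal axis), for complement members, clotting members and all other features; 57 features outside the axes are not drawn. Of the 40 members, 34 lie above the horizontal line at 0, and Fgb is the highest of them at 1.85.

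Marker lists differed between the same livers in either direction. The erythroid markers were higher in Cyp3a-/- liver 2 by a median of 0.58 (4 of 5 genes) and the stellate cell markers by 0.32 (9 of 10). Hepatocyte markers were higher by 0.09 (7 of 9), Kupffer cell markers by 0.10 (5 of 9), and sinusoidal endothelial markers were lower by a median of 0.10 (4 of 10 higher). Cholangiocyte markers (0 of 4 higher) and neutrophil markers (0 of 3 higher) were lower in Cyp3a-/- liver 2, with median differences of -0.20 and -0.34. The part of these differences in the members' pattern was not tested.

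The rest of both cascades was taken from lists of related genes. Of 28 other complement genes (C1q and C1r chains, receptors, properdin, factor H relatives), 24 were measured and 0 passed the test, with a median log2 fold change of -0.05. At an unadjusted p under 0.05, 0 were higher, against 4.6% of all features, and 2 lower (8.33%, against 5.42% of all features). Colec11, which encodes a collectin that starts the lectin pathway, had signals of 3.02 and 2.95 in wild type and 2.19 and 2.23 in Cyp3a-/- livers. Both pairs were tight and did not overlap, and the log2 fold change was -0.77 ± 0.17 (adjusted p = 0.267). Colec11 is also on the stellate cell list. C3ar1, the receptor of the C3a fragment, was at -0.60 ± 0.20 (adjusted p = 0.411) and was well above background on 3 of the 4 arrays.

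Of 30 other clotting and fibrinolysis genes, 24 were measured and 0 passed the test, with a median log2 fold change of 0.11. At an unadjusted p under 0.05, 2 were higher (8.33%, against 4.6% of all features) and 1 lower (4.17%, against 5.42% of all features). Habp2, a plasma protease that can activate factor VII, had signals of 4.96 and 5.01 in wild type and 5.45 and 5.40 in Cyp3a-/- livers, and its log2 fold change was 0.44 ± 0.17 (adjusted p = 0.492). Fgl1, a liver protein related to fibrinogen, was at 0.47 ± 0.18 (adjusted p = 0.489). F3, which encodes tissue factor, the cell-surface trigger of clotting, had signals of -1.06 and -0.77 in wild type and -1.69 and -1.50 in Cyp3a-/- livers, and its log2 fold change was -0.68 ± 0.20 (adjusted p = 0.371). All 3 genes had pairs that did not overlap, as did 22.5% of all features in the higher and 20.2% in the lower direction. None of the 3 passed the test over all features. The 5 genes of the vitamin K cycle, on which prothrombin and its relatives depend, had a median of 0.01 and 0 at an unadjusted p under 0.05.

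Regulators of these genes and other acute phase products were also without a call in limma's test. Of 11 liver transcription factors, 0 passed, with 1 higher and 1 lower at an unadjusted p under 0.05 (9.09% each, against 4.6% and 5.42% of all features). Cebpb, a C/EBP factor induced in the acute phase, had signals of 3.30 and 3.62 in wild type and 4.07 and 4.27 in Cyp3a-/- livers, with a log2 fold change of 0.71 ± 0.20 (adjusted p = 0.36). Onecut1, the gene of hepatocyte nuclear factor 6, had signals of -1.01 and -0.20 in wild type and -2.20 and -2.60 in Cyp3a-/- livers, with a log2 fold change of -1.79 ± 0.32 (adjusted p = 0.198). Of 21 acute phase genes, 20 were measured and 0 passed, with a median of -0.07. Orm3, an orosomucoid gene, was at 1.55 ± 0.32 (adjusted p = 0.246), and Hamp, which encodes the iron hormone hepcidin, was at -1.15 ± 0.22 (adjusted p = 0.228). These were the 2 acute phase genes at an unadjusted p under 0.05 (5% higher and 5% lower, against 4.6% and 5.42% of all features). They lay on opposite sides of 0.

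Among markers of blood and immune cells in the same RNA, 0 passed the test. Those named here, apart from Pf4, Itga2b and Gp1bb, had an unadjusted p under 0.05, as did 5.42% of all features in the lower direction. The globin genes Hba-a1, Hbb-b1 and Hbb-bt were at -1.07, -0.90 and -0.81 with adjusted p-values of 0.359, 0.36 and 0.377 in limma's test. Of the 5 measured erythroid markers, 3 met this, as did 1 of 9 Kupffer cell markers, 2 of 5 platelet markers (list median 0.00478) and 2 of 6 lymphocyte markers (list median -0.35). Marco, a scavenger receptor of Kupffer cells, was at -1.47 (adjusted p = 0.246), and Ms4a1, the B cell gene of CD20, at -0.92 (adjusted p = 0.322). Ppbp, a platelet marker, was well above background in wild type but not in Cyp3a-/- livers. Itgb3, the platelet fibrinogen receptor's beta chain, was at -0.56 (adjusted p = 0.401), while the other measured platelet markers were above 0, at 0.00478 (Pf4), 0.00922 (Itga2b) and 0.18 (Gp1bb). Of the 5 measured erythroid markers 4 were below 0 and 1 was above, at 0.00712. Of the lymphocyte markers 5 were below 0 and 1 above, and of the Kupffer cell markers 7 were below 0 and 2 above. Cholangiocytes (4 of 6 markers measured, median -0.04), neutrophils (3 of 6, median -0.08) and sinusoidal endothelium (10 of 10, median 0.04) had 0 markers at an unadjusted p under 0.05.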

How the data were processed

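Each of 4 livers was measured on its own 1-colour Agilent array, and its genotype and replicate number were taken from the labels. The members and all gene lists were chosen with earlier results of these data known. The authors deposited scanner output whose processed intensity, background-subtracted and detrended, came from Agilent Feature Extraction 11.5.1.1, per the file headers and the submitters' processing notes. Median intensities of spots and local background, and flags of 0 or 1 (an "other" unit), were deposited in the same files. A second deposited table by the authors holds log2 values whose scale, centring and direction are unstated. Set against the scanner values, its 39417 probes behaved as scaled log2 intensity centred on each probe's median (correlation 1.00 on each array, column medians 0.06, -0.07, -0.02 and 0.02), and 12 probes were not listed in it. It served as an alternative.

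Control spots and 113 to 148 outlier spots per array were left out. Processed intensities were taken to log2 and shifted so that the 75th percentile of each array (308 to 352.2) was 0. A probe had to be well above background in both livers of either genotype (21508 of 39429), was named through its RefSeq accession (28025 probes had a symbol), and the kept probe with the highest mean signal stood for its gene. Of the members, 9 had several kept probes, and for 3 of these (C3, C8a and Masp2) the probes' fold changes differed in sign. The genotype difference was fitted in R 4.3.3 with limma 3.58.1 (2-sided, lmFit and eBayes), with Benjamini-Hochberg adjustment over 17406 features and a threshold of 0.05; prior and residual degrees of freedom were 3.54 and 2. The fit was tested on simulated data. P-values measure the spread between these livers, and the wild type pair's spread holds no difference between slides; the 4 arrays limit every value's precision. All arrays were scanned on 1 day.

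Members named in full are those at an unadjusted p under 0.05, the 10 with the largest absolute log2 fold change and a list of central factors (C3, Hc, C9, Mbl2, F2, Fga, Fgb, Fgg, Plg and Serpinc1); Cfb, Klkb1, Serpind1 and the platelet markers Pf4, Itga2b and Gp1bb, given for comparison, were added after their values were seen. Other genes are named at an unadjusted p under 0.05, except 1 that is not reported here. Promoters came from RefSeq's table of assembly GRCm38.p6, and neighbours from its gene table. Same-numbered livers did not deviate together (correlation -0.10). Alternatives covered background correction, scaling, the filter, the probe rule, blocks and leaving out each liver.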

Additional observations from a re-analysis of the deposited data

How the results depend on the processing

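The count of 0 members called held under every alternative run except without Cyp3a-/- replicate 2, where Fgb was called lower at -1.83 (adjusted p = 0.0183, limma, with 506 features called in all); over the fits that leave out 1 liver the count ran from 0 to 1, and the lone liver was assumed to vary like the other genotype. At an unadjusted p under 0.05 in limma's test there were 2 members of 40 with normexp background correction (C2 and Fga), against 9.08% of all features. With quantile normalization the 1 member was Fga, against 9.74% of all features, and with median scaling it was Fgb, against 10.6%. Limma's prior degrees of freedom were infinite with median scaling, so a gene's own spread, that of Fgb included, did not enter that test. Leaving out Cyp3a-/- liver 2 put Serping1 at -0.63. The median log2 fold change of the complement members was -0.15 with quantile normalization. Leaving out 1 liver gave medians of -0.089 to 0.17 for all members, -0.10 to 0.17 for complement and -0.081 to 0.17 for clotting members, the highest each time without Cyp3a-/- liver 1. With the replicate block, 0 members and 58 features were called against 48 without it, and the adjusted p of C2 was 0.526; the numbers are not stated to pair livers. The crossed pairing, added after seeing the data, called 0 members and 56 features. Over all features, 33 were called with normexp, 40 with quantile normalization, 659 with median scaling, 13 without the filter on dim probes, 9 with probes above background on all 4 arrays, 47 with probe means, 48 from the deposited table, 33 with slide as a random block (a moment estimate added after seeing the data, since duplicateCorrelation gives none from 4 arrays and was not run), and 8, 7 and 94 without wild type liver 1, wild type liver 2 and Cyp3a-/- liver 1. The cause of these differences was not tested. No member was saturated, and every member was well above background on all 4 arrays.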
